A study of Mus musculus with 12 samples.

Results

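The genes described are 10 enzymes and enzyme subunits that write or erase DNA methylation and Polycomb marks: Dnmt1, Dnmt3a, Dnmt3b, Uhrf1, Tet1, Tet2, Tet3, Ezh1, Ezh2 and Suz12. They were chosen by symbol alone, and all 10 of the 10 were found among the 55536 annotated genes of the count table and in the table of FPKM values. RNA was sequenced from sorted CD8+ T cells of the OT-I line, a T cell receptor transgenic mouse line (strain label OT-1 Tg C57BL/6J) whose CD8+ cells recognize a peptide of ovalbumin and which, per the study's methods, also lacks Rag1 or Rag2. The Ag group held 5 libraries of OT-I cells transferred into C57BL/6J mice that then received the antigen (with rat IgG as the control antibody), and the Ag+Costim group held 5 libraries from recipients given the antigen together with the agonist antibodies anti-OX40 and anti-41BB, which stimulate the costimulatory receptors CD134 and CD137. Cells of both groups came from spleen and lymph nodes at day 4 of the labels, where the study's methods give a somewhat shorter time. The 2 Naive libraries were OT-I CD8+ cells from mice that were neither injected nor used for a transfer, so Naive differs from the other groups in the transfer as well as in the antigen. Per the study's methods, its mice as a whole were of both sexes. The clonal T cell receptor makes the cells a model of 1 specificity only. The labels do not say that each library is a separate mouse, while the study describes its libraries as individual biological replicates, so the p-values measure the spread between these libraries.

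DNA methyltransferases add methyl groups to cytosine in CpG. Dnmt1 copies methylation onto the new strand after replication, guided by Uhrf1, which binds hemimethylated DNA. Dnmt3a and Dnmt3b set methylation de novo. The Tet dioxygenases oxidize methylcytosine, the first step of active demethylation. Polycomb repressive complex 2 (PRC2) methylates lysine 27 of histone H3 through Ezh2 or its paralog Ezh1, and Suz12 is the subunit that holds the complex together. In T cells Ezh2 is known to accompany proliferation while Ezh1 is known from resting cells, and in CD8+ cells Dnmt3a, Tet2 and Ezh2 are known for their part in the choice between effector and memory fates.

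Total gene counts ranged from 24006053 to 45980125 in Ag, from 40028682 to 49294934 in Ag+Costim and from 42342577 to 43491402 in Naive. The sequencing core's sheet lists an input to the library preparation (unit not stated) of 0 for all 5 Ag libraries, of 10 for all 5 Ag+Costim libraries, and of 8.5 and 10.7 for Naive, so this column and the group cannot be told apart. The 7 T cell markers were high in every library, with a summed level of 8917 to 10940 CPM (counts scaled to library depth) in Ag, 4810 to 6534 in Ag+Costim and 8813 to 9296 in Naive. The 7 erythroid markers summed to 588 to 6729 CPM in Ag, 14.7 to 211 in Ag+Costim and 169 to 2315 in Naive. The 6 B cell markers summed to 103 to 159 CPM in Ag, 22.3 to 57.3 in Ag+Costim and 30.6 to 33.2 in Naive, where Ebf1 and Pax5, defining genes of B cells, were at 0. The 6 myeloid markers summed to 43.4 to 169 CPM in Ag, 76.5 to 128 in Ag+Costim and 32.5 to 60.5 in Naive. Of these, Itgam (5.29-fold), Csf1r (2.93-fold) and Adgre1 (2.61-fold) were called higher in Ag+Costim than in Ag, with libraries that overlapped. Lyz2, Fcer1g and Cd14 were lower there and not called. The part of these other cells in the results was not tested. The length of a gene's main transcript also moved with the groups. In Ag against Naive the median log2 fold change was 0.34 over the 4001 genes under 1000 bases and -0.68 over the 1483 genes of 6000 bases or more, while in Ag+Costim against Ag the same medians were -0.37 and 0.26. Over the 2600 genes from 4000 to under 6000 bases the medians were -0.49 and 0.41. The class of 6000 bases or more holds Tet1 (14369 bases), Tet3 (10904 bases), Dnmt3a (9685 bases) and Tet2 (9179 bases), and that from 4000 to under 6000 bases holds Dnmt1 (5367 bases), Suz12 (4373 bases) and Ezh1 (4207 bases).

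When antigen-experienced cells with and without costimulation were compared, the maintenance pair Dnmt1 and Uhrf1 stood 8.40-fold and 7.16-fold higher in Ag+Costim, Suz12 3.68-fold and Ezh2 2.22-fold, and Tet1 stood 3.33-fold lower. Of the 10 genes, 5 were called higher (Dnmt1, Uhrf1, Suz12, Ezh2 and Dnmt3a) and 3 lower (Tet1, Tet3 and Ezh1) at an edgeR adjusted p below 0.05, and Dnmt3b and Tet2 did not pass. Among all 18817 genes tested, 26.6% were called higher and 26.5% lower in the same comparison. Between Ag and Naive, 2 were called higher (Uhrf1 and Ezh2) and 5 lower (Dnmt1, Tet1, Tet2, Tet3 and Ezh1), where 24.2% of all genes were called higher and 22.5% lower. With an offset for transcript length in each library, Uhrf1, Ezh2 and Dnmt3a were called higher in that comparison and the 5 lower calls were lost. Between Ag+Costim and Naive, 5 were called higher and 4 lower, against 26.9% and 25.4% of all genes, and Dnmt3b was the gene left over. In these bulk libraries, fewer cells expressing a gene and less RNA of it per cell cannot be told apart. All comparisons of Ag+Costim with Ag and of Ag with Naive share the same 5 Ag libraries.

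**Figure D1:**
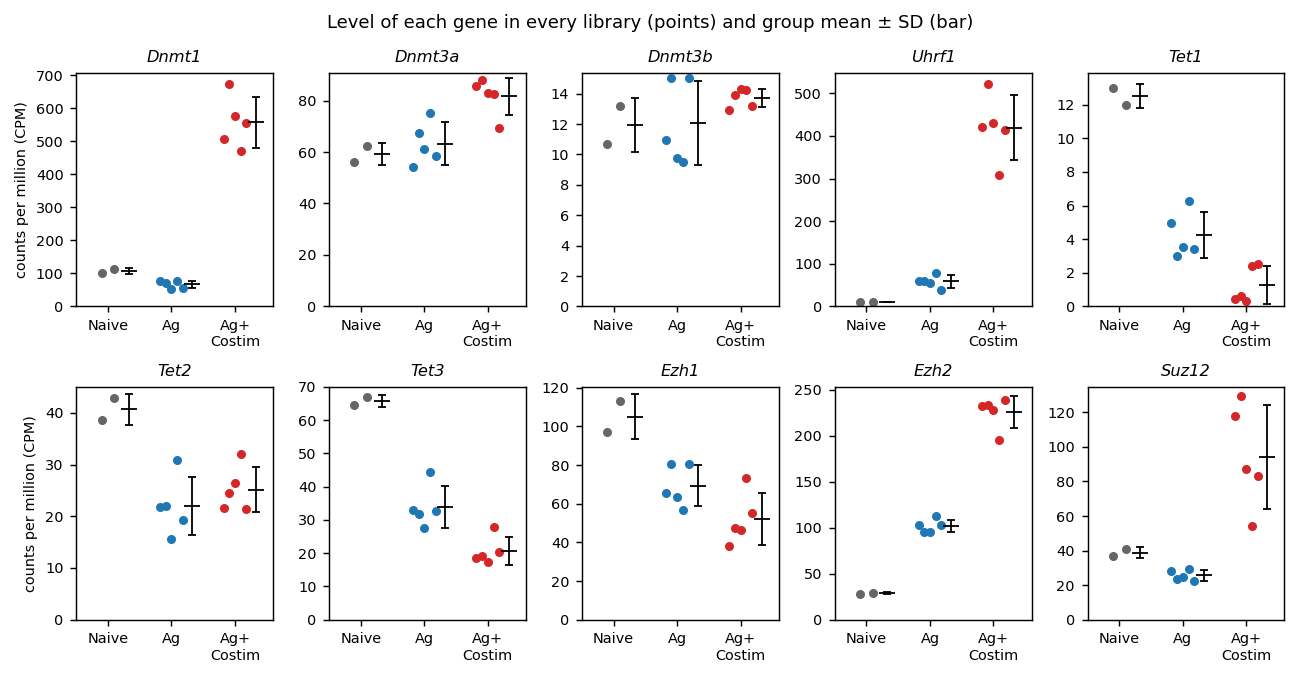
Level of each of the 10 genes in CPM (y axis from 0, a scale of its own per gene) in the 2 Naive, 5 Ag and 5 Ag+Costim libraries, with 1 point per library and the group mean ± SD as a bar beside the points. Dnmt1, Uhrf1, Ezh2 and Suz12 in Ag+Costim lie above every library of the other groups, Tet1 in Ag+Costim lies below them, and Dnmt3b overlaps between all 3 groups.

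**Figure D2:**
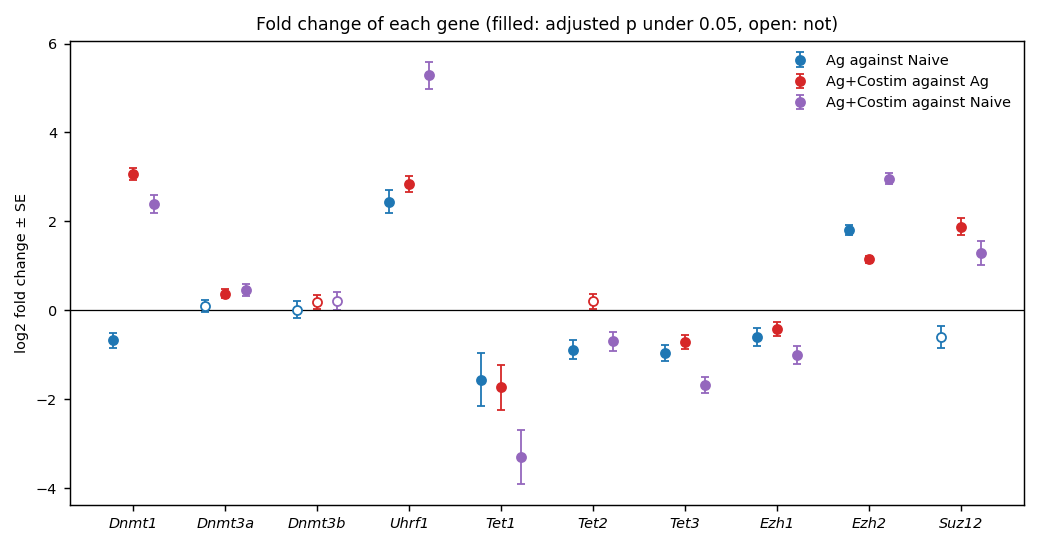
Log2 fold change ± SE of the 10 genes from the edgeR fit of all 12 libraries, for Ag against Naive, Ag+Costim against Ag and Ag+Costim against Naive (filled points, adjusted p below 0.05, open points, not). Dnmt1 has opposite signs in Ag against Naive (-0.68) and in Ag+Costim against Ag (3.07), while Uhrf1 and Ezh2 are above 0 in every comparison.

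The maintenance enzyme Dnmt1 (chr9:20907209-20959888, minus strand, mm10) measured 99.8 and 113 CPM in the 2 Naive libraries. In Ag it measured 77.6, 70.0, 53.0, 76.4 and 54.7 CPM. Its Ag+Costim levels were 506, 675, 578, 471 and 555 CPM. The 3 groups did not overlap, with Ag lowest and Ag+Costim far above the rest. The log2 fold change of Ag+Costim against Ag was 3.07 ± 0.14 (SE, edgeR adjusted p = 5.76e-09), and it stayed between 2.99 and 3.14 when each library in turn was left out. Against Naive, Ag was lower by a log2 fold change of -0.68 ± 0.17 (edgeR adjusted p = 0.00445), and Ag+Costim was higher by 2.39 ± 0.20 (edgeR adjusted p = 4.82e-07). The lower level in Ag than in Naive was the less firm of these: without Naive replicate 2 the value was -0.59 with an edgeR adjusted p of 0.0649, and with the offset for transcript length it was -0.11 with an adjusted p of 0.556.

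Uhrf1 (chr17:56303321-56323486, plus strand), the partner that brings Dnmt1 to replicated DNA, was low in Naive, at 11.2 and 10.3 CPM. Its Ag levels were 60.4, 59.8, 54.0, 79.2 and 39.3 CPM. The Ag+Costim values were 420.1, 522, 430.5, 308 and 415 CPM. Each step separated the groups without overlap. The log2 fold change was 2.45 ± 0.26 in Ag against Naive (edgeR adjusted p = 6.38e-06) and 2.84 ± 0.18 in Ag+Costim against Ag (edgeR adjusted p = 4.98e-08). From Naive to Ag+Costim the level of Uhrf1 rose 39.0-fold, the largest fold of the 10 genes in any of the 3 comparisons. The pair thus differed at the first step, where Uhrf1 rose and Dnmt1 did not. The ratio of their FPKM values (levels scaled to transcript length and library depth) was 0.162 and 0.132 in the Naive libraries, 1.08 to 1.52 in Ag and 0.992 to 1.28 in Ag+Costim. Per length, Uhrf1 RNA was thus scarcer than Dnmt1 RNA in both Naive libraries and at a like level in the others.

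The promoters of the 4 genes with the largest rises are shown because these genes moved together between Ag and Ag+Costim. RefSeq (GRCm38.p6, the assembly named mm10 by the authors) gives 15 windows for the 10 genes, each from 250 bases before to 50 bases after a start. The letters searched, on both strands, were the 4 spellings of the consensus of E2F, a family of factors of the G1 to S transition: TTTCGCGC, TTTCCCGC, TTTGGCGC and TTTGCCGC. These words were chosen after the values had been seen, and matches to different words on opposite strands can share bases. Capitals mark the matches in the windows below, which are written 5′ to 3′ in the sense of the gene.
Dnmt1 chr9:20952574-20952873 (minus strand): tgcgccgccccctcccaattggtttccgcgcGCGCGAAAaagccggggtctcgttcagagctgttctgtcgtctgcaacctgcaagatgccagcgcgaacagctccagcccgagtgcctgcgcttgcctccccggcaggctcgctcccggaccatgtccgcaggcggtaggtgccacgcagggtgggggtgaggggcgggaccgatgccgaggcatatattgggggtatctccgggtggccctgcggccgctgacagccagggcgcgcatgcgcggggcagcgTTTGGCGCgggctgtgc
Uhrf1 chr17:56304063-56304362 (plus strand): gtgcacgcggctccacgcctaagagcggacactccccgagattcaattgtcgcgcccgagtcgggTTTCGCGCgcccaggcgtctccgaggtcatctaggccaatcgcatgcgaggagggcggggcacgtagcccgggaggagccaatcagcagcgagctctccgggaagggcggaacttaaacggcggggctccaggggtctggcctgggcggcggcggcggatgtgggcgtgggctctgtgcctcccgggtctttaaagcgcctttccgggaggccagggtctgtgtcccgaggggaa
Ezh2 chr6:47594981-47595280 (minus strand): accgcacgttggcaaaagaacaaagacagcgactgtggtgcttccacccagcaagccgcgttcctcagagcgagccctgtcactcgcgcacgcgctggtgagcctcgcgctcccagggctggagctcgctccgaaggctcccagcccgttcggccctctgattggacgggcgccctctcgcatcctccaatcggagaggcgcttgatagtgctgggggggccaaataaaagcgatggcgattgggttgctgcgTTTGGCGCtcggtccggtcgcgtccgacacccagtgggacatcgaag
Suz12 chr11:79992856-79993155 (plus strand): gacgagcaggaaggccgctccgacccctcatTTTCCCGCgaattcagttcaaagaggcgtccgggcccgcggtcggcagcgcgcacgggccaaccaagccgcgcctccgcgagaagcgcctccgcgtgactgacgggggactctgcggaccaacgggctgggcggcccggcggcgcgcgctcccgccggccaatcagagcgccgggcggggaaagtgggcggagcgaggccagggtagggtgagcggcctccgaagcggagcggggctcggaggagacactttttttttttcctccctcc
The window of Ezh1, the paralog of Ezh2 that was lower in Ag+Costim, follows for comparison and holds none of the 4 words. The 3 windows of Dnmt3a, which was called higher in Ag+Costim than in Ag, hold none either. Whether the words go with the direction of a gene was not tested.
Ezh1 chr11:101226414-101226713 (minus strand): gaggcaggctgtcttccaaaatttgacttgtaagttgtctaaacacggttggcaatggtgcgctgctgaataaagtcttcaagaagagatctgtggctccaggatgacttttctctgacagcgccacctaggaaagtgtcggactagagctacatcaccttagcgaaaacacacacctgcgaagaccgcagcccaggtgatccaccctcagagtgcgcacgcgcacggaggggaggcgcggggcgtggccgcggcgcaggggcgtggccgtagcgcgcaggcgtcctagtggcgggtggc
A window with at least 1 match was found for 4 of the 10 genes, Dnmt1, Uhrf1, Ezh2 and Suz12. The 10 genes have 15 windows, with 3 for Dnmt1 and 2 for Uhrf1, so this count of genes is not a share of windows. Of all 32851 promoter windows of that length, 2.26% hold 1. All 4 words contain CG, and the windows with a match hold 33 (Dnmt1), 33 (Uhrf1), 31 (Ezh2) and 41 (Suz12) CG. The median over all windows is 7 CG, and the part of CG content in the matches was not tested. By word, 0.323% of all windows hold TTTCGCGC (Dnmt1 and Uhrf1 among the 10), 0.514% TTTGGCGC (Dnmt1 and Ezh2), 1.07% TTTCCCGC (Suz12) and 0.441% TTTGCCGC (none of the 10). The Dnmt1 window shown belongs to a RefSeq start downstream of position 20952979, where the annotated main transcript Dnmt1-201 begins, and the window around that position holds no match. Likewise the Uhrf1 window shown holds the start of Uhrf1-204 (14.2% of the Uhrf1 counts in Ag and 14.6% in Ag+Costim), while the window with the start of the main transcript Uhrf1-201 holds no match. A match is a run of letters and says nothing of binding, and the absence of these letters from the other windows says only that they are not in those 300 bases.

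Ezh2 (chr6:47530139-47595341, minus strand), the PRC2 methyltransferase of dividing cells, measured 28.5 and 29.5 CPM in Naive. In Ag it measured 103, 95.3, 95.8, 112 and 103 CPM. In Ag+Costim it measured 232, 233, 228, 196 and 239 CPM. The 3 groups were again fully apart, in the order Naive, Ag, Ag+Costim. The log2 fold change was 1.81 ± 0.11 for Ag against Naive (edgeR adjusted p = 1.04e-07) and 1.15 ± 0.08 for Ag+Costim against Ag (edgeR adjusted p = 8.55e-08). From Naive to Ag+Costim Ezh2 rose 7.79-fold. Unlike Dnmt1, Ezh2 kept its call in Ag against Naive with the offset for transcript length.

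Suz12 (chr11:79993106-80034123, plus strand), the scaffold subunit of PRC2, was lowest in Ag, as Dnmt1 was, and not in Naive, as Ezh2 was. It measured 36.7 and 41.1 CPM in Naive. The Ag values were 28.2, 23.3, 24.9, 29.5 and 22.4 CPM, all below Naive. The Ag+Costim libraries held 118, 130, 87.0, 54.0 and 83.1 CPM, all above both other groups, with replicate 4 the lowest. The rise from Ag to Ag+Costim had a log2 fold change of 1.88 ± 0.20 (edgeR adjusted p = 2.98e-06), and that from Naive to Ag+Costim was 1.28 ± 0.27 (edgeR adjusted p = 0.00133). The difference of Ag from Naive, -0.60 ± 0.25, missed the threshold (edgeR adjusted p = 0.0597), as it did in 15 of 20 other settings. Over those 20 settings it lay between -0.73 and -0.13, with an edgeR adjusted p up to 0.706. It passed under DESeq2 (adjusted p = 0.0424), in the fit of the 2 groups alone (edgeR adjusted p = 0.00818) and on FPKM with limma (adjusted p = 0.0210). It also passed without Ag+Costim replicate 2 (edgeR adjusted p = 0.0394) or 4 (edgeR adjusted p = 0.0108). Suz12 has 4373 bases, and in Ag against Naive the median of all genes from 4000 to under 6000 bases was -0.49.

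Ezh1 (chr11:101191115-101226463, minus strand), the PRC2 methyltransferase of resting cells, ran the other way. It measured 96.9 and 113 CPM in Naive. In Ag it measured 65.5, 80.7, 63.3, 56.8 and 80.7 CPM. Its Ag+Costim levels were 38.0, 47.6, 46.2, 73.1 and 55.3 CPM. Naive lay above all other libraries, and Ag and Ag+Costim overlapped through Ag+Costim replicate 4. Ezh1 was 2.02-fold lower in Ag+Costim than in Naive (log2 fold change -1.01 ± 0.20, edgeR adjusted p = 0.000914). Its steps were less firm, at -0.60 ± 0.21 for Ag against Naive (edgeR adjusted p = 0.0284) and -0.42 ± 0.16 for Ag+Costim against Ag (edgeR adjusted p = 0.0424). The latter call was lost without any 1 of Ag replicates 1, 2 and 5 and of Ag+Costim replicates 1, 2, 3 and 5 (edgeR adjusted p up to 0.0988), and the former without Ag replicate 1 or 3 or either Naive library, with values of -0.49 to -0.71. With the length offset, Ag against Naive was -0.15 (edgeR adjusted p = 0.578).

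The ratio of Ezh2 to Ezh1, in FPKM, shows the opposite movement of the paralogs in single libraries. It was 0.483 and 0.455 in Naive. It was 2.38, 1.92, 2.33, 3.07 and 2.18 in Ag. It was 9.31, 7.63, 7.63, 3.94 and 6.66 in Ag+Costim. Naive cells thus held more Ezh1 than Ezh2 RNA per length and all antigen-experienced libraries held more Ezh2, with no overlap between the 3 groups. The ratio of Dnmt1 to Dnmt3a did not follow that order, at 1.77 and 1.61 in Naive, 0.817 to 1.40 in Ag and 7.21 to 10.8 in Ag+Costim.

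**Figure D3:**
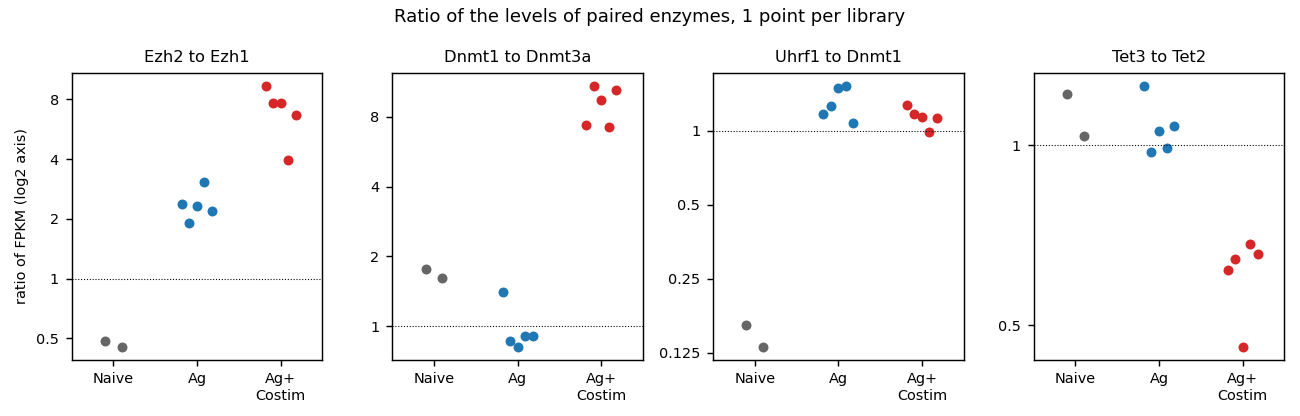
Ratio of the FPKM values of Ezh2 to Ezh1, Dnmt1 to Dnmt3a, Uhrf1 to Dnmt1 and Tet3 to Tet2 (log2 axis, the dotted line marks a ratio of 1) with 1 point per library in Naive, Ag and Ag+Costim. Ezh2 to Ezh1 rises from a mean of 0.469 over 2.37 to 7.03, and Uhrf1 to Dnmt1 is 0.147 in Naive against 1.31 in Ag and 1.14 in Ag+Costim.

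The de novo enzymes moved little. Dnmt3a (chr12:3806007-3914443, plus strand) measured 56.2 and 62.4 CPM in Naive. Ag libraries gave 54.0, 67.3, 61.0, 75.3 and 58.4 CPM. In Ag+Costim it measured 85.5, 87.9, 83.1, 82.6 and 69.5 CPM, and Ag+Costim replicate 5 fell within the range of Ag. The counts gave a log2 fold change of 0.37 ± 0.10 in Ag+Costim against Ag (edgeR adjusted p = 0.00649). The direction turned on FPKM, with a difference of -0.20 on the log2(FPKM + 1) scale that did not pass limma (adjusted p = 0.209), and with the offset for length or upper-quartile scaling the values of 0.14 and 0.17 did not pass. Against Naive, Ag+Costim was higher by 0.46 ± 0.13 on the counts (edgeR adjusted p = 0.0109). This call was lost without Naive replicate 1 (0.38, edgeR adjusted p = 0.127) and with upper-quartile scaling (0.31, edgeR adjusted p = 0.0695). Over all settings the value ranged from -0.29 to 0.95. Ag did not differ from Naive past the threshold (0.09 ± 0.13), and was higher with the length offset (0.81, edgeR adjusted p = 8.79e-05). The FPKM of Dnmt3a were 13.1 ± 2.96 (SD, n = 5) in Ag and 11.1 ± 1.05 (SD, n = 5) in Ag+Costim. Dnmt3b (chr2:153649450-153687730, plus strand), the other de novo enzyme, was low and flat, at 10.7 and 13.2 CPM in Naive, 9.49 to 15.1 CPM in Ag and 13.0 to 14.3 CPM in Ag+Costim. It passed no test, with log2 fold changes of 0.02 ± 0.20 for Ag against Naive and 0.18 ± 0.15 for Ag+Costim against Ag. Dnmt3l, the catalytically inactive relative of germ cells, had no count in any library.

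Of the demethylating dioxygenases, Tet1 (chr10:62804570-62908996, minus strand) had the largest fall. It measured 13.0 and 11.99 CPM in Naive. In Ag it measured 4.94, 2.98, 3.54, 6.29 and 3.42 CPM. Ag+Costim libraries gave 0.451, 0.599, 0.343, 2.42 and 2.54 CPM. The groups did not overlap, and within Ag+Costim replicates 4 and 5 lay well above the other 3. The log2 fold change of Ag+Costim against Ag was -1.74 ± 0.51 (edgeR adjusted p = 0.0105) and stayed called without any 1 library. For Ag against Naive it was -1.57 ± 0.60 (edgeR adjusted p = 0.0453), a call lost without Ag replicate 1, 2, 3 or 5 or either Naive library (edgeR adjusted p up to 0.162). From Naive to Ag+Costim the fall was 9.86-fold (log2 fold change -3.30 ± 0.60, edgeR adjusted p = 0.000447).

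Tet3 (chr6:83362373-83459084, minus strand) measured 64.6 and 67.0 CPM in Naive. The 5 Ag libraries measured 33.0, 31.8, 27.6, 44.4 and 32.5 CPM. The Ag+Costim libraries held 18.6, 19.1, 17.5, 27.8 and 20.3 CPM. Naive lay above Ag without overlap, while Ag+Costim replicate 4 just exceeded the lowest Ag library. The log2 fold change was -0.96 ± 0.18 for Ag against Naive (edgeR adjusted p = 0.000830) and -0.71 ± 0.15 for Ag+Costim against Ag (edgeR adjusted p = 0.00103). Tet2 (chr3:133463679-133545139, minus strand), the Tet gene often mutated in T cell lymphoma, was called lower in Ag than in Naive and did not pass between Ag and Ag+Costim. It measured 38.6 and 42.8 CPM in Naive, 21.9, 22.1, 15.7, 30.8 and 19.3 CPM in Ag, and 21.7, 24.4, 26.4, 32.0 and 21.3 CPM in Ag+Costim. Ag and Ag+Costim overlapped throughout, with a log2 fold change of 0.20 ± 0.17 that did not pass (edgeR adjusted p = 0.338), and Ag lay below Naive by -0.89 ± 0.21 (edgeR adjusted p = 0.00361). The offset for transcript length reduced the falls of Tet1, Tet2 and Tet3 in Ag against Naive to -0.79, -0.21 and -0.23, and none of these 3 passed. In Ag+Costim against Naive, Tet3 and Tet1 stayed lower with that offset, and Tet2 went from -0.69 ± 0.21 (edgeR adjusted p = 0.0146) to -0.24 (edgeR adjusted p = 0.225). Tet2 also lost that call without Naive replicate 2 (-0.62, edgeR adjusted p = 0.107).

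Per length, the order of the 10 genes changed from group to group. In Naive the mean FPKM ran from Ezh1 (29.0 ± 3.81, SD, n = 2) and Dnmt1 (23.4 ± 1.63) over Dnmt3a (13.9), Ezh2 (13.6), Suz12 (10.3), Tet3 (8.89) and Tet2 (7.96) to Uhrf1 (3.42), Dnmt3b (3.21) and Tet1 (2.64). Among neighbours in that order, the ranges of mean ± SD overlapped for Dnmt3a and Ezh2, Tet3 and Tet2, Uhrf1 and Dnmt3b, and Dnmt3b and Tet1. In Ag, Ezh2 led at an FPKM of 40.0 ± 4.64 (SD, n = 5), and the next 4, Ezh1 (17.1), Uhrf1 (16.5), Dnmt3a (13.1) and Dnmt1 (12.6), each overlapped its neighbour in mean ± SD. Suz12 (5.87), Tet3 (4.49), Tet2 (4.23) and Dnmt3b (2.92) followed in the same way, and Tet1 was at 0.508. In Ag+Costim, Uhrf1 (115 ± 20.8, SD, n = 5), Dnmt1 (99.8 ± 13.9) and Ezh2 (81.7 ± 7.26) led, again with neighbours that overlapped in mean ± SD. Suz12 (21.3), Ezh1 (12.4) and Dnmt3a (11.1) came next, then Tet2 (3.87), Dnmt3b (3.27) and Tet3 (2.38), with Tet1 at 0.150.

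Since Dnmt1, Uhrf1 and Ezh2 are known to follow the cell cycle, the 10 genes were set beside 19 genes of DNA replication and S phase. All 19 were called higher in Ag+Costim than in Ag, with a median log2 fold change of 1.67 where the median of all genes was -0.05. In Ag against Naive, 18 were called higher and 1 lower, with a median of 1.495 where all genes had 0.02, and the exception was Cdt1, a licensing factor of replication (-0.44). The 15 genes of G2 and mitosis were called higher in both comparisons, among them Mki67, which rose from 4.17 CPM in Naive to 85.5 in Ag and 302 in Ag+Costim. Pcna, the replication clamp, measured 102, 242 and 505 CPM in these groups. In the Ag libraries most S phase genes were thus above Naive while Dnmt1 was below both Naive libraries in all 5. With the offset for transcript length, 18 of the 19 were still called higher in Ag against Naive. Dnmt1 was then at -0.11 and not called.

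Expressed as log2 CPM minus the mean log2 CPM of the 19 S phase genes, Dnmt1 went from 1.94 in Naive to -0.62 in Ag and back to 0.73 in Ag+Costim. The values of its libraries did not overlap between the groups, at -0.93 to -0.34 in Ag and 0.55 to 0.87 in Ag+Costim. Ezh2 was near the S phase mean in Naive (0.07) and Ag (0.01) and below it in Ag+Costim (-0.57). Its libraries did not overlap between Ag (-0.28 to 0.57) and Ag+Costim (-0.66 to -0.42). Uhrf1 moved from -1.36 over -0.82 to 0.31, the only one of the 10 that gained on the S phase genes at both steps. Suz12 went from 0.49 in Naive to -1.98 in Ag and -1.89 in Ag+Costim. The other 6 genes fell on this scale at each step. Ezh1 went from 1.92 over -0.56 to -2.71, and Tet3 from 1.25 over -1.59 to -4.03. The S phase mean itself rose from 4.79 in Naive to 6.66 in Ag and 8.38 in Ag+Costim. A gene that kept its level, such as Dnmt3b, thus falls on this scale. So does Dnmt3a, which was called higher in Ag+Costim than in Ag. The differences on this scale carry no offset for transcript length and were not tested.

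**Figure D4:**
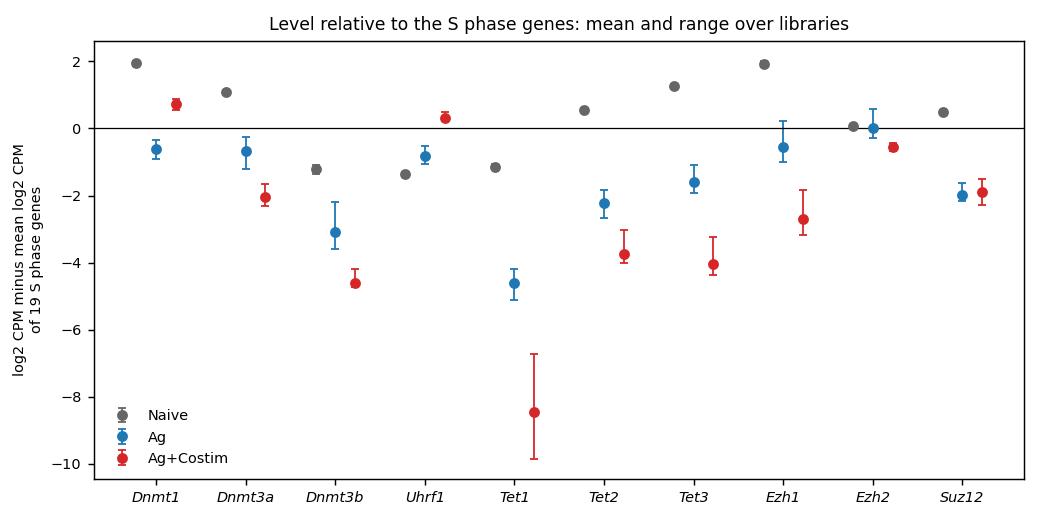
Level of each of the 10 genes relative to S phase, as log2 CPM minus the mean log2 CPM of 19 S phase genes, with the group mean as a point and the range over the libraries as a bar (2 Naive, 5 Ag, 5 Ag+Costim). Dnmt1 goes from 1.94 in Naive to -0.62 in Ag and 0.73 in Ag+Costim. The means of Ezh2 are 0.07 in Naive, 0.01 in Ag and -0.57 in Ag+Costim, and its Ag and Ag+Costim ranges do not overlap. The values carry no offset for transcript length.

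The other genes of the same pathways give the setting. Between Ag+Costim and Ag, 7 of 13 PRC2 genes passed as higher and 2 (Ezh1, Phf1) as lower, against 26.6% and 26.5% of all genes. The median log2 fold change of the 13 was 0.67. With the length offset 7 were higher and 4 lower, and both lower calls were lost with no filter on low counts and without any 1 of Ag replicates 2 and 5 and Ag+Costim replicates 1, 2, 3 and 5. The histone-binding subunits Rbbp4 and Rbbp7 rose by log2 fold changes of 0.92 and 0.93, while the core subunit Eed, the third partner of Ezh2 and Suz12, was at 0.31 and missed the threshold (edgeR adjusted p = 0.0537). Of the accessory subunits that direct PRC2 to its sites, Epop rose 3.74-fold, Phf19 2.83-fold and Jarid2 1.59-fold. Aebp2 and Mtf2, at log2 fold changes of 0.37 and -0.16, did not pass, and Phf1 fell (-0.48) with overlapping libraries. In Ag against Naive the 13 genes split into 5 higher and 5 lower (median 0.08), against 24.2% and 22.5% of all genes. With the offset for transcript length they split into 6 and 3. Eed (0.81), Phf19 (2.71), Rbbp7 (0.48) and Mtf2 (0.46) rose with Ezh2, and Jarid2 (-1.41), Phf1 (-2.09), Lcor (-1.23) and Epop (-0.79) fell with Ezh1. Jarid2 measured 77.9 CPM in Naive, 29.3 in Ag and 46.6 in Ag+Costim.

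PRC1, the complex that reads the PRC2 mark and ubiquitinates histone H2A, had 10 of 22 genes called higher and 5 lower in Ag+Costim against Ag (median log2 fold change 0.31). Over all genes the shares there were 26.6% higher and 26.5% lower. In Ag against Naive 2 of the 22 were higher and 12 lower (median -0.65, or 3 higher and 9 lower with the length offset), against 24.2% and 22.5% of all genes. Cbx2, a reader subunit, was also lowest in Ag and highest in Ag+Costim, at 13.6 CPM in Naive, 2.74 in Ag and 27.6 in Ag+Costim, with log2 fold changes of -2.32 ± 0.23 and 3.34 ± 0.20. Of the catalytic subunits, Ring1 fell by 1.64 on the log2 scale in Ag and rose by 0.98 in Ag+Costim against Ag, and Rnf2 passed in neither comparison (0.08 and -0.20). Kdm2b, which targets PRC1 to CpG islands, rose 3.72-fold from Ag to Ag+Costim. With upper-quartile scaling the split of the 22 genes in Ag+Costim against Ag was 6 higher and 5 lower.

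Among the 5 genes that remove Polycomb marks, 2 (Kdm6a and Bap1) were called higher in Ag+Costim against Ag, where 26.6% of all genes were. The other 3 did not pass, and the median of the 5 was -0.02. With the length offset 1 of the 5 was higher and 2 were lower. In Ag against Naive 4 were called lower (median -0.77), against 22.5% of all genes. With the length offset 2 of the 5 were lower and 1 higher there. The H3K27 demethylase Kdm6b fell from 14.8 CPM in Naive to 2.69 in Ag (log2 fold change -2.46 ± 0.26) and measured 2.57 in Ag+Costim (-0.06 ± 0.22, not called). Its relative Kdm6a fell in Ag (-1.19) and rose in Ag+Costim against Ag (0.98), with libraries that overlapped.

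Of 20 genes of DNA methylation writers and readers, 19 were tested, all but Dnmt3l. In Ag+Costim against Ag 12 were called higher and 3 lower (median log2 fold change 0.45), against 26.6% and 26.5% of all genes. In Ag against Naive 4 were higher and 9 lower (median -0.32), against 24.2% and 22.5% of all genes. Hells, the remodeler needed for methylation of heterochromatin, and its partner Cdca7 rose at both steps with Uhrf1, by log2 fold changes of 2.54 and 2.42 in Ag and of a further 1.62 and 1.61 in Ag+Costim. Uhrf2, the paralog of Uhrf1, changed much less (-0.32 and 0.45). Ahcy, which clears the inhibitory product of methyl transfer, rose from Ag to Ag+Costim (1.67), as did the glycosylase Mbd4 (1.69), and Zbtb4, a protein that binds methylated DNA, fell (-2.42).

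Of 15 genes of DNA demethylation, 14 were tested (all but Cxxc4). In Ag+Costim against Ag 4 passed as higher and 6 as lower (median -0.16), against 26.6% and 26.5% of all genes. In Ag against Naive 1 passed as higher and 7 as lower (median -0.56), against 24.2% and 22.5% of all genes. Tdg, the glycosylase that excises the products of Tet, rose at both steps (0.96 and 1.04), the opposite direction to Tet1 and Tet3. Cxxc5, a CpG-binding relative of the Tet partner proteins, measured 37.9 CPM in Ag and 1.20 in Ag+Costim, a log2 fold change of -4.98 ± 0.20. The stress-response genes Gadd45a and Gadd45b moved apart, the former 2.83-fold lower and the latter 1.70-fold higher. With the offset for transcript length, the DNA methylation list in Ag against Naive had 5 called higher and 3 lower, and the demethylation list 1 higher and 5 lower.

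A list of 12 genes known from other work as targets of PRC2 or of Dnmt3a in T cells or other cells was also counted, and these data hold no measure of the marks. In Ag+Costim against Ag, 3 were called higher and 8 lower (median log2 fold change -0.71), against 26.6% and 26.5% of all genes. The genes of naive and memory cells Id3 (-2.29), Foxo1 (-2.05), Tcf7 (-1.23) and Lef1 (-1.16) fell, and so did the effector cytokine gene Ifng (-0.83). Prdm1, the repressor of terminal effector cells, rose from 0.930 CPM in Ag to 17.4 in Ag+Costim (4.24 ± 0.27). Eomes rose (1.69). Cdkn2a, a locus that PRC2 is known to silence, had 0 counts in all Ag and Naive libraries and 65 counts over the 5 Ag+Costim libraries, 3 to 26 in each. Its mean level of 0.304 CPM in Ag+Costim was 20.6 times a floor of 3 counts over the Ag group. It was 8.70 times the same floor over the Naive group. The floor stands for counting error only, and these ratios are no lower bounds. They carry no error of the Ag+Costim mean, and StringTie derives its counts from coverage, so 3 counts are not 3 reads. Between Ag and Naive, 4 of the 12 were called higher and 3 lower (median 0.19), against 24.2% and 22.5% of all genes. There Ifng (4.37), Id3 (1.88), Eomes (0.88) and Foxo1 (0.50) rose, and Il7r, the receptor of interleukin-7 (-2.43), and Lef1 (-1.43) were among those that fell.

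Transcripts of the 10 genes were compared by their share of the gene's counts. Of 54 transcripts tested, 1 passed in Ag+Costim against Ag, as higher in share, where 1.42% of 41844 transcripts were called higher and 0.985% lower (edgeR's diffSpliceDGE). In Ag against Naive 1 passed, as lower, where the background was 0.564% higher and 1.00% lower. The transcript was Dnmt3a-205 in both, which held under 10% of the counts of Dnmt3a in every group. With limma on log ratios in place of diffSpliceDGE, 9 of the 54 were called in Ag+Costim against Ag and 3 in Ag against Naive.

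The transcripts described next had shares that did not overlap between the Ag and the Ag+Costim libraries, and edgeR called none of them. They were chosen for that after the shares had been seen. Dnmt3a-202, a short transcript with a retained intron (1944 bases, 4 exons), held 20.7% and 26.2% of the Dnmt3a counts in Naive. In Ag it held 21.3%, 29.1%, 19.1%, 24.1% and 19.2%. In Ag+Costim it held 4.44%, 3.23%, 4.10%, 4.26% and 3.47%, far below every other library. The edgeR adjusted p was 0.0700 and that of limma on log ratios 2.99e-04. The coding transcript Dnmt3a-201 took up the difference, at 70.5% to 80.1% in Ag and 91.7% to 94.3% in Ag+Costim. In mean counts, Dnmt3a-201 went from 1899 to 3286 and Dnmt3a-202 from 565 to 138, opposite directions within 1 gene. FPKM weighs a short transcript more than counts do, and the part of this in the difference between the FPKM and the count result of Dnmt3a was not tested.

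Tet3-203, a coding transcript that starts at chr6 position 83456392, upstream of Tet3-201 and Tet3-202, held 13.4% and 17.2% of the Tet3 counts in Naive. In Ag it held 6.38%, 5.35%, 7.25%, 5.88% and 3.92%. In Ag+Costim it held 31.1%, 38.8%, 28.7%, 30.0% and 16.4%, above Ag without overlap. The edgeR adjusted p was 0.213 and that of limma on log ratios 0.00176. Tet3-201, a processed transcript without a coding frame, went from 5.61% to 17.2% in Ag to 0% to 2.69% in Ag+Costim (edgeR adjusted p = 0.0519), and it was called without Ag replicate 4 or Ag+Costim replicate 5. Suz12-206, a coding transcript with 1 exon fewer than Suz12-201 (15 against 16), had no count in 4 of 5 Ag libraries and held 16.5% in the fifth. In Ag+Costim it held 22.0%, 24.6%, 18.1%, 68.2% and 53.9%. The edgeR adjusted p was 0.0921, and without Ag replicate 5 it was 9.80e-06. StringTie divides reads between transcripts that share nearly all their sequence, and the part of that division in the shares of Suz12-206 was not tested. Dnmt3b-206, a coding transcript of 20 exons, held 34.5%, 39.4%, 46.0%, 0% and 50.1% of the Dnmt3b counts in Ag and 71.4%, 52.9%, 75.7%, 58.2% and 54.4% in Ag+Costim, but 0% and 28.3% in Naive (edgeR adjusted p = 1).

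**Figure D5:**
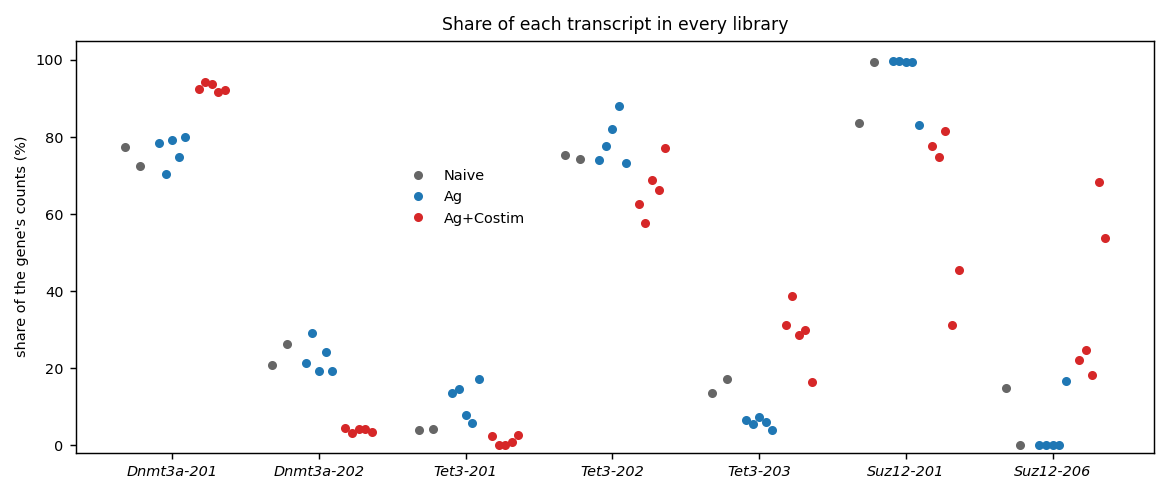
Share of the gene's counts, in percent, of transcripts of Dnmt3a, Tet3 and Suz12 with 1 point per library in Naive, Ag and Ag+Costim. Dnmt3a-202 lies between 3.23% and 4.44% in Ag+Costim and between 19.1% and 29.1% in Ag and Naive, and Tet3-203 lies above its Ag values in all 5 Ag+Costim libraries.

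The deposited splicing table gives 1 percent-spliced-in value (Psi, the fraction of reads that include a node of the gene) for Ag and 1 for Ag+Costim, without error, so its values are a description. It lists 191 nodes in the 10 genes, of which 7 differed by more than 0.1, or 3.67%, against 7.39% of all 115403 nodes listed. Of these 7, 5 were transcription starts of Dnmt3b, Ezh1 and Uhrf1. In Tet3 the exon at chr6:83441217-83441273 was at 0.835 in Ag and 0.957 in Ag+Costim, and the alternative first exon at chr6:83441550-83441675 was at 0.533 and 0.420. In Uhrf1 the start at chr17:56303321-56303399, that of Uhrf1-201, was at 0.524 and 0.652, and the start at chr17:56303400-56303561, that of Uhrf1-203, was at 0.478 and 0.349. The StringTie shares of these transcripts did not show that direction and overlapped between the groups, at 46.4% to 80.9% in Ag and 50.8% to 64.0% in Ag+Costim for Uhrf1-201, and 4.04% to 30.1% and 17.3% to 27.9% for Uhrf1-203. The 40 nodes of Dnmt1 and the 21 of Ezh2 held no difference above 0.0903.

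For each gene the genes with the most similar profile over the 12 libraries were sought among 9253 genes with a mean log2 CPM above 3, by the root mean square difference of centred log2 CPM. The nearest to Dnmt1 was Wdr62 (0.19), at 7.49 CPM in Naive, 6.13 in Ag and 48.7 in Ag+Costim, then Nup205 and Ube2s. Uhrf1 was nearest to Anln (0.22), Orc1 (0.27) and Ect2 (0.28), and Ezh2 to Carhsp1 (0.16), Cldnd1 (0.18) and Rfc3 (0.19). Suz12 was nearest to Maz (0.17) and then Epop (0.18), itself a PRC2 subunit. Tet3 was nearest to Chd2 (0.09), Tet2 to Helz2 (0.12), Ezh1 to Wdr91 (0.12), Dnmt3a to Slc6a6 (0.11) and Dnmt3b to Parn (0.10). Tet1, which lay below the level set for the pool, had no close neighbour, with Gm20696 nearest at 0.60. Likeness over 12 libraries that share 3 groups is a description.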

How the data were processed

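RNA of 5 Ag, 5 Ag+Costim and 2 Naive libraries was prepared by the authors with SMART-Seq v4 and Nextera XT kits and read as single reads. Per the labels, reads were aligned to mm10 with HISAT2 2.1.0, handled with SAMtools 1.9 and quantified with StringTie 2.1.0. The deposited counts per gene and per transcript are StringTie's, derived from coverage and not normalized. Whether counting used strand is not given in the sources used here, so reads of the antisense genes Dnmt3aos and Dnmt3bos cannot be told apart from Dnmt3a and Dnmt3b. The deposited FPKM values were made by the authors with StringTie per transcript and were summed here per gene name. Psi, a fraction of 0 to 1, was computed by the authors with Whippet as 1 value per group. Further columns of that deposited table (DeltaPsi, Probability, Complexity and Entropy) hold the authors' own comparison of Ag with Ag+Costim and its measures, and were not used. The percentages of aligned reads and the inputs come from the deposited sheet of the sequencing core.

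The 26345 entries without an Ensembl identifier (0.0508% to 0.121% of the counts of a library) were left out. Counts of all 12 libraries were fitted with edgeR 4.0.16 in R 4.3.3 (TMM scaling, filterByExpr, 1 term per group, robust quasi-likelihood test, two-sided, Benjamini-Hochberg adjustment over 18817 genes, threshold 0.05). Log2 CPM used a prior count of 2. All 10 genes passed the filter. Transcript shares were tested with edgeR's diffSpliceDGE, limited to genes with more than 1 transcript. Gene models and positions are those of GENCODE vM21, and a gene's length is that of its transcript with most counts. The alternatives were DESeq2 1.42.0, upper-quartile scaling, no filter, the 2 groups alone, the replicate number as a block, limma 3.58.1 on log2(FPKM + 1), an offset for transcript length, a term for Y-linked transcripts and leaving out each library. The steps were run on simulated data in which a small part of the genes changed and no trend with transcript length was set. These data differ in both, so that run does not cover them. The 10 genes and all gene lists were chosen with earlier results of these data known. Genes named are the 10, fixed partners of theirs, and up to 3 others per list with the largest called change whose libraries did not overlap. Phf1, Cdca7, Ring1, Rnf2, Cdt1, Foxo1, Tcf7, Lef1, Eomes, Ifng and the transcript Dnmt3a-205 fall outside that rule in comparisons where they are given, and were named after their values had been seen. Floors of 3 counts cover counting error only and take counts as reads.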

Additional observations from a re-analysis of the deposited data

Results flagged for a closer look

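In the 20 groups of 5 libraries formed by the 10 genes, 2 held a library set apart from the other 4 by a gap that is large for the range of the group, and chance alone sets apart about 1 in 20 such groups. Ezh2 measured 195.8 CPM in Ag+Costim replicate 4, below the 228 to 239 CPM of the other 4 libraries. Tet3 measured 27.8 CPM in the same library, above the 17.5 to 20.3 CPM of the others. Leaving that library out moved the log2 fold change of Ag+Costim against Ag to 1.21 for Ezh2 and to -0.83 for Tet3, and both kept their calls. The same library also had the lowest Suz12 (54.0 CPM) and Uhrf1 (308 CPM) and the highest Ezh1 (73.1 CPM) of its group.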

How the results depend on the processing

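Of the log2 fold changes of the 10 genes under settings other than left-out libraries, 215 kept their direction and side of the threshold, 12 lost a call, 4 gained 1 and 9 turned direction. With libraries left out 335 kept both, 20 lost a call, 2 gained 1 and 3 turned. The turned values were at most 0.29 in size. In Ag+Costim against Ag they were Dnmt3b (-0.00804) and Tet2 (-0.000963) with upper-quartile scaling, Dnmt3a (-0.20) and Tet2 (-0.0897) on FPKM, and Dnmt3b (-0.19) and Tet2 (-0.0338) with the length offset. In Ag against Naive these were Dnmt3a (-0.0932) and Dnmt3b (-0.11) on FPKM, and Dnmt3b also with libraries left out (-0.13 to 0.17). In Ag+Costim against Naive it was Dnmt3a (-0.29) on FPKM. The number of the 10 genes called in Ag against Naive was 7, and 3 with the length offset, and 4 to 8 with libraries left out, lowest without Naive replicate 2, where the genes called in all went from 8792 to 5713 (5713 to 9569 over the libraries). Transcripts called in share were 2907 in Ag+Costim against Ag and 1673 in Ag against Naive with limma on log ratios, and 282 and 234 with only transcripts of at least 5% of their gene's counts. The fit described in the report called 1007 and 656, and with libraries left out 334 to 656 in Ag against Naive, with 366 without Naive replicate 1 and 334 without Naive replicate 2. Upper-quartile scaling moved the median of all genes in Ag+Costim against Ag from -0.05 to -0.24 and the calls to 4056 higher and 6338 lower, against 5006 and 4979, and FPKM gave 3678 higher and 5410 lower in Ag+Costim against Naive, against 5066 and 4778. The replicate number as a block gave 9736 genes called in Ag+Costim against Ag, where 9985 were called without the block, and changed no call of the 10 genes. The correlations of same-numbered Ag and Ag+Costim libraries were 0.30, 0.15, 0.11, -0.04 and -0.02, and only replicates 1 and 2 were highest with their own number. For replicates 1 and 2 they were 0.21 and -0.08 between Ag and Naive, and 0.14 and 0.07 between Ag+Costim and Naive. The labels do not say whether equal numbers pair libraries, and these correlations cannot decide it. With 2 Naive libraries, comparisons with Naive are the less precise. Why these settings moved the results was not tested.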
